A study of Mus musculus with 4 samples.

Results

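The comparison described here set Tut1-deleted neural stem cells against control cells of the same floxed genotype, read by Nanopore long-read cDNA sequencing. Both libraries came from Tut1f/f cells, primary neural stem cells grown from embryonic mouse neocortex. The control, called Tut1f/f here, received an empty lipid nanoparticle (LNP), and the deleted cells, called Tut1f/f;Cre, received an LNP carrying Cre recombinase mRNA, which removes exon 2 of Tut1. Reads were summed per gene, and a gene entered the comparison when each of the 2 libraries held at least 20 of its reads. That gave 7312 genes of the 14949 named in the deposited table, and of the 14215 with a read in either library. These 7312 genes held 98.1% of the gene reads of either library.

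A pair of further libraries of the study serves as background. Trp53f/f;Cre cells (written p53f/f in the labels) carry floxed Trp53 and received the same Cre LNP, and Tut1f/f;Trp53f/f;Cre cells are labelled as lacking both genes. RNA was taken 3 days after the LNP in all 4 groups. Every group was 1 library, so the difference between any 2 of them has no replicate check, and the intervals given below cover counting error only. Cre exposure and loss of Tut1 cannot be told apart between Tut1f/f and Tut1f/f;Cre, because every Tut1-deleted cell also met Cre. Where 4 values follow each other, the first is the control, the next is Tut1f/f;Cre, then comes Trp53f/f;Cre, and the last is Tut1f/f;Trp53f/f;Cre.

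TUT1 is a nuclear enzyme that lengthens the uridine tail of U6 snRNA, the small nuclear RNA that pairs with the 5′ splice site and takes part in the catalytic core of the spliceosome. USB1 trims that tail afterwards, the La protein binds the untrimmed tail, and the ring of LSM2 to LSM8 proteins binds the tail as well. In the study the amount of U6 bound to Lsm4 or Lsm8 was unaltered in cells lacking Usb1. U6 enters splicing inside the U4/U6.U5 tri-snRNP, and an intron that is not removed can remain in the polyadenylated RNA.

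The 2 libraries held 5125888 and 4253498 reads, of which 4244467 and 2968653 fell in entries that name a gene. A gene's level is given as CPM, its reads scaled to a common library size by the trimmed mean of M-values (TMM), so that 1 read stood for 0.251 CPM in Tut1f/f and 0.330 CPM in Tut1f/f;Cre. One ribosomal RNA gene, CT010467.1, took 18.7% of the gene reads of Tut1f/f and between 5.46 and 9.75% in the 3 Cre libraries. Mitochondrial genes took 2.50% against 4.82 to 5.77%. Entries that name no gene held 17.2% of reads in Tut1f/f and 27.3 to 30.2% in the Cre libraries. The control therefore stood apart from all 3 Cre libraries in its makeup, and the part of that in the results was not tested.

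Tut1 itself had 37, 11, 14 and 27 reads, too few in Tut1f/f;Cre for the minimum, and lay 2.56-fold lower there (log2 ratio -1.36, 95% interval -2.48 to -0.36). Its isoform ENSMUST00000096239 had 28, 0, 2 and 6 reads, so the compared pair of libraries differed in the direction of its labels. Over all isoforms, however, Tut1 stood at 9.30, 3.63, 4.02 and 9.15 CPM. Trp53f/f;Cre, which is labelled as keeping Tut1, thus lay near Tut1f/f;Cre, whereas Tut1f/f;Trp53f/f;Cre, labelled as lacking it, lay at the control's level, so that by the gene total neither of these background libraries followed its label. Tut1f/f;Cre lay below Tut1f/f;Trp53f/f;Cre (log2 ratio -1.33, -2.49 to -0.27). Names of libraries below are those of their labels, and directions that set the 2 libraries labelled as Tut1-deleted against the rest carry this limit. Trp53 had 175, 67, 10 and 19 reads, lowest in the libraries labelled as lacking it. Between Tut1f/f and Tut1f/f;Cre, both labelled as keeping Trp53, it went from 44.0 to 22.1 CPM (log2 ratio -0.99, -1.42 to -0.58), just short of 2-fold.

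The cells read as neural stem cells on markers. Of 12 such markers 11 met the minimum, and their summed level was 12147, 12454, 11675 and 13463 CPM, led by the radial glial lipid carrier Fabp7. All 5 endothelial and all 3 ependymal markers had 0 reads in all 4 libraries. Of 6 microglial and 6 mesenchymal markers, 5 and 4 had 0 reads throughout, and the neuronal markers Rbfox3, Eomes and Tbr1 had 0. The 10 neuronal markers summed to between 77.2 and 95.6 CPM. The 8 oligodendrocyte-lineage markers, most of them Olig1 and Olig2, stood at 385 CPM in Tut1f/f and 642, 732 and 525 CPM in the Cre libraries. The 7 astrocyte markers stood at 448, 292, 263 and 377 CPM. In bulk RNA fewer cells of a type and less RNA per cell cannot be told apart, and the part of these shifts in the results was not tested.

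Sex-linked transcripts differed between the compared libraries although both are labelled Tut1f/f. The Y-linked genes Kdm5d, Uty, Ddx3y and Eif2s3y had between 28 reads (Uty) and 155 reads (Eif2s3y) in the control, and each had 0 reads in Tut1f/f;Cre as well as in Trp53f/f;Cre. In Tut1f/f;Trp53f/f;Cre they had between 42 and 96 reads. Xist, the RNA that coats the inactive X chromosome, had 0, 44, 49 and 0 reads. A difference in sex between the compared cultures thus cannot be told apart from the deletion.

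Across the 7312 genes the log2 ratio of Tut1f/f;Cre over Tut1f/f had a median of -0.02 and an SD of 0.80. Genes that were at least 2-fold apart with a counting interval that left out no change are called higher or lower in what follows. There were 596 higher genes (8.15% of those compared) and 797 lower genes (10.9%), while 5919 were neither. Ratios of 4-fold or more were found in 46 higher and 94 lower genes. The median gene had an interval of 0.43 on either side on the log2 scale, and those with 20 to 49 reads in the lower library one of 0.67. The balance between the directions rests on the scaling. Without the TMM factor the median moved to 0.10, and 793 genes were higher and 637 lower.

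The genes with the lowest ratios at a mean of 50 CPM or more were of varied function. Mest, an imprinted gene (chr6:30723547-30748465, GRCm38), stood at 1218, 36.3, 42.2 and 81.3 CPM, 33.5-fold lower in Tut1f/f;Cre (log2 ratio -5.07, -5.35 to -4.80). Mest shares 34.7% of the 31-base words of its leading transcript with its neighbour Copg2, and the 2 genes summed were lower by a log2 ratio of -4.43. Uqcrfs1, the Rieske iron-sulfur subunit of respiratory complex III, stood at 230, 9.57, 7.17 and 14.6 CPM and was 24-fold lower (log2 ratio -4.58, -5.17 to -4.05). The control was the high library for both genes, and the 3 Cre libraries lay far below it. Pgls, an enzyme of the pentose phosphate pathway, was 11.3-fold lower at 123, 10.9, 12.3 and 4.41 CPM (log2 ratio -3.50, -4.05 to -2.99). Cox5a, a subunit of respiratory complex IV, stood at 708, 124, 131 and 145 CPM (log2 ratio -2.51, -2.67 to -2.36). Pfkl, the liver-type phosphofructokinase of glycolysis, stood at 147, 28.4, 38.2 and 27.1 CPM (log2 ratio -2.37, -2.71 to -2.04). For these 3 as well no Cre library reached a level near the control. Prkar1a, the regulatory subunit of protein kinase A, was 7.30-fold lower (log2 ratio -2.87, -3.24 to -2.51), and Adgrg1, an adhesion receptor of neural progenitors, 5.43-fold lower (log2 ratio -2.44, -2.88 to -2.02). Hmga1 and Tpt1 were 6.71-fold and 5.23-fold lower, but each shares sequence with a near copy. Summed with Hmga1b and Tpt1-ps3 their log2 ratios were -1.80 and -1.51. The lowest ratio at a mean of 50 CPM or more belonged to Gm47283, annotated on the Y chromosome, at 413, 6.60, 9.76 and 22.4 CPM (log2 ratio -5.97, -6.68 to -5.34). It was also low in Tut1f/f;Trp53f/f;Cre, where the Y-linked genes Kdm5d, Ddx3y and Uty were not below the control. Eif2s3y, also Y-linked, stood at 39.0 CPM in Tut1f/f and 20.3 CPM in Tut1f/f;Trp53f/f;Cre.

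The genes with the highest ratios included Son, Malat1 and Hist1h1b, whose products are nuclear. Son, which encodes a nuclear-speckle protein needed to splice weak introns, stood at 180, 1156, 839 and 1057 CPM, 6.43-fold higher in Tut1f/f;Cre (log2 ratio 2.68, 2.57 to 2.80). Malat1, a long noncoding RNA of the same speckles, stood at 13.8, 104, 92.7 and 88.5 CPM (log2 ratio 2.91, 2.49 to 3.35). Hist1h1b, a replication-dependent linker histone, had the largest ratio at a mean of 50 CPM or more, at 72.9, 562, 592 and 640 CPM (log2 ratio 2.95, 2.76 to 3.13). In each of these the 3 Cre libraries lay far above the control and close to one another. The libraries were made from poly(A) RNA, so these ratios cover only molecules captured as such and not all RNA of the genes. Gtf2a1, a subunit of the general transcription factor TFIIA, was 5.57-fold higher (log2 ratio 2.48, 2.23 to 2.73), the chromatin remodeller Chd6 5.53-fold (log2 ratio 2.47, 2.06 to 2.90), and the histone acetyltransferase Crebbp 4.92-fold (log2 ratio 2.30, 1.99 to 2.62). Grm5, a metabotropic glutamate receptor, stood at 34.7, 164, 120 and 176 CPM (log2 ratio 2.24, 1.97 to 2.52). Eif3f, a subunit of the translation initiation factor eIF3, stood at 17.6, 88.8, 95 and 67.4 CPM (log2 ratio 2.34, 1.95 to 2.74). The mitochondrial ribosomal RNA mt-Rnr2 was 3.99-fold higher, at 8343, 33283, 29879 and 25538 CPM. The plot of the leading genes shows the control alone on one side of each.

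**Figure D1:**
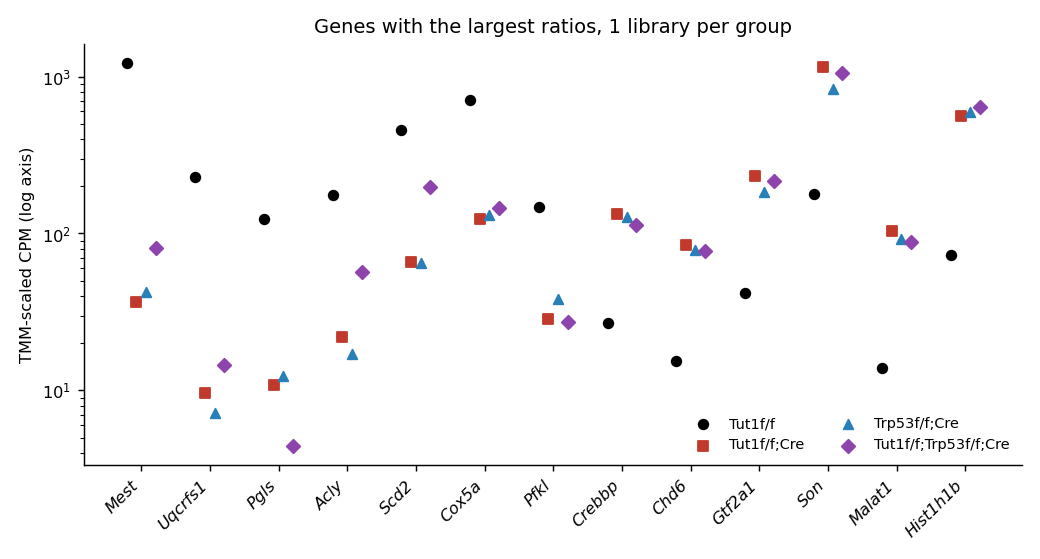
TMM-scaled CPM on a log axis for 13 genes from among the largest ratios between Tut1f/f;Cre and Tut1f/f, 1 point per library and no error bars because each group was 1 library. In every gene shown the control (black circles) lies to one side, and the red squares of Tut1f/f;Cre, the blue triangles of Trp53f/f;Cre and the purple diamonds of Tut1f/f;Trp53f/f;Cre lie on the other, as for Son at 180 CPM against 839 to 1156 CPM.

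By gene type, 6955 of the compared genes were protein coding, with 565 higher and 781 lower. Of 49 lincRNA genes 6 were higher and 0 lower, and of 53 genes of type processed transcript 7 were higher and 2 lower, where all genes had 8.15% higher and 10.9% lower. Both mitochondrial rRNA genes were higher. The nuclear rRNA gene CT010467.1 was lower, from 792995 to 289585 reads (log2 ratio -1.06). Processed pseudogenes, which share sequence with their parent genes, had 5 higher and 9 lower of 154. Of 1392 higher or lower genes examined for shared sequence, 130 had 20% or more of their 31-base words in another gene, and 97 of these were lower. Without them 563 genes were higher and 700 lower.

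Genes of cholesterol and fatty acid synthesis were lower as a group. Of 25 members 13 were lower and 0 higher, against 10.9% and 8.15% of all genes, with a median log2 ratio of -1.12 against -0.02. Acly, which makes cytosolic acetyl-CoA from citrate, stood at 175, 21.8, 16.9 and 56.9 CPM (log2 ratio -3.01, -3.39 to -2.64). Scd2, a stearoyl-CoA desaturase, stood at 458, 65.7, 65.1 and 198 CPM (log2 ratio -2.80, -3.02 to -2.59). Hmgcs1, which makes HMG-CoA, stood at 553, 173, 191 and 389 CPM (log2 ratio -1.68, -1.82 to -1.54). All 3 were lowest in Tut1f/f;Cre or Trp53f/f;Cre and less far down in Tut1f/f;Trp53f/f;Cre. The squalene epoxidase Sqle (-1.34), the sterol demethylase Cyp51 (-1.26) and Idi1 (-1.60) were also lower. Srebf2, the transcription factor of the pathway, had a log2 ratio of 0.33. The median of the same 25 genes was -0.46 for Trp53f/f;Cre over Tut1f/f and -0.25 for Tut1f/f;Trp53f/f;Cre over Tut1f/f. These comparisons share the control library.

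Members of the ATF4 integrated stress response were lower too. Of 16 ATF4 targets and partners 8 were lower (50%, against 10.9% of all genes) and 0 higher, with a median of -0.89. The median was -0.85 for Trp53f/f;Cre over the same control and -0.21 for Tut1f/f;Trp53f/f;Cre over it. The transcription factor Atf4 itself stood at 151, 60.8, 70.3 and 98.6 CPM (log2 ratio -1.32, -1.56 to -1.08). Phgdh, the first enzyme of serine synthesis, stood at 356, 85.8, 82.1 and 147 CPM (log2 ratio -2.05, -2.25 to -1.86), and Shmt2, the mitochondrial serine hydroxymethyltransferase, at 48.3, 9.90, 16.4 and 22 CPM (log2 ratio -2.29, -2.89 to -1.72). The control was highest in these 3, and Asns, asparagine synthetase, at 101.8, 38.3, 63.4 and 104 CPM, was as high in Tut1f/f;Trp53f/f;Cre as in the control. Ddit3, which encodes the stress factor CHOP, had a log2 ratio of 0.12 with an interval of -0.406 to 0.645. Over 33 genes of amino acid and nucleotide metabolism 11 were lower (33.3%) and 1 higher, with a median of -0.63. Among 21 endoplasmic reticulum chaperones and degradation factors 6 were lower (28.6%) and 1 higher, with a median of -0.47. Hspa5, the chaperone BiP, was 2.54-fold lower (log2 ratio -1.34, -1.55 to -1.14; -0.73 over unmodified Ensembl transcripts alone) and the disulfide isomerase P4hb 3.51-fold lower (log2 ratio -1.81, -2.03 to -1.60). The higher member was Atf6, a sensor of unfolded proteins (log2 ratio 1.26, 0.58 to 1.97).

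Glycolysis and hypoxia genes had 6 lower and 1 higher of 26, with a median of -0.71. Pkm, pyruvate kinase, stood at 1262, 389, 359 and 679 CPM (log2 ratio -1.70, -1.79 to -1.61). Ldha, lactate dehydrogenase, stood at 2118, 1053, 1161 and 1762 CPM (log2 ratio -1.01, -1.07 to -0.95), at the edge of 2-fold, and fell short of it under 2 other scalings and with unmodified Ensembl transcripts only. Hk2, the inducible hexokinase, was the higher member at 122, 268, 310 and 281 CPM (log2 ratio 1.13, 0.97 to 1.30). The group's median was -0.33 and -0.27 for the other Cre libraries over Tut1f/f. Tubulins were lower in 6 of 9 members with a median of -1.14. Tuba1a, the main neural alpha-tubulin, stood at 3555, 1613, 1399 and 2625 CPM (log2 ratio -1.14, -1.19 to -1.09). Tubb5 stood apart from the rest with a log2 ratio of 0.41. Of 49 RAB and ARF GTPases, which direct vesicle traffic, 12 were lower and 1 higher, and of 28 lysosomal and endosomal genes 6 were lower and 0 higher. The lower shares were 24.5% and 21.4%, against 10.9% of all genes.

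Translation factors had 7 higher and 9 lower of 46 (15.2% and 19.6%), against 8.15% and 10.9% of all genes. Eef1a1, the elongation factor that delivers tRNA, stood at 6554, 2708, 2100.4 and 3767 CPM (log2 ratio -1.27, -1.31 to -1.24). The helicase Eif4a1 was 2.68-fold lower (log2 ratio -1.42, -1.56 to -1.30) and Eif4b, its partner, 4.02-fold lower (log2 ratio -2.01, -2.28 to -1.74). Within eIF3, Eif3d and Eif3h were lower (log2 ratios -1.30 and -1.13) whereas Eif3b, Eif3c and Eif3f were higher (1.50, 1.17 and 2.34). Cytosolic ribosomal proteins, by contrast, lay close to all genes. Of 78 members 0 were higher and 2 lower, with a median of 0.20. The lower pair was Rps2 (-2.31) and Rps10 (-1.04). Rps2 shares 85.3% of its 31-base words with other genes, most of them with Rps2-ps10, and summed with that gene its log2 ratio was -2.15. Subunits of the respiratory chain encoded in the nucleus had 0 higher and 6 lower of 76 and a median of 0.23, so that Uqcrfs1 and Cox5a were exceptions among them. Of 17 mitochondrially encoded genes 5 were higher and 0 lower. The complex I gene mt-Nd5 stood at 396, 826, 807 and 776 CPM (log2 ratio 1.06, 0.97 to 1.15).

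Chromatin regulators had the highest median of all lists with 5 or more members. Of 49 members 21 were higher (42.9%, against 8.15% of all genes) and 4 lower (8.16%, against 10.9%), with a median log2 ratio of 0.84. Crebbp has been given above. Chd4, the remodeller of the NuRD complex, stood at 78.7, 226, 250 and 181 CPM (log2 ratio 1.52, 1.32 to 1.72). Kmt2a, a histone H3 lysine methyltransferase, stood at 52.5, 163, 151 and 142 CPM (log2 ratio 1.63, 1.40 to 1.87). Atrx, a remodeller of heterochromatin, stood at 126, 325, 293 and 261 CPM (log2 ratio 1.36, 1.21 to 1.52). Tet1, which oxidises methylated cytosine, had the largest ratio of the list at 11.3, 66.4, 73.5 and 57.3 CPM (log2 ratio 2.55, 2.08 to 3.05). The 3 Cre libraries stood above the control in all 4 genes. The lower members were Hmga1, Hmgn1, Hmgn2 and Smarcb1, of which the first 3 encode small architectural proteins. The median of the list was 0.85 for Trp53f/f;Cre over Tut1f/f and 0.75 for Tut1f/f;Trp53f/f;Cre over Tut1f/f.

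Genes of the neural stem cell state went both ways. Of 25 stem cell and radial glia genes 6 were higher (24%, against 8.15% of all genes) and 1 lower, with a median of 0.39. The lower one was Bcan, which encodes the matrix proteoglycan brevican, at 34.4, 9.57, 12.6 and 5.08 CPM (log2 ratio -1.85, -2.48 to -1.26). Vim, the intermediate filament vimentin, stood at 1265, 758, 619 and 622 CPM (log2 ratio -0.74, -0.81 to -0.67), short of 2-fold. Hes1, a Notch effector that holds progenitors undifferentiated, stood at 149, 500, 455 and 452 CPM (log2 ratio 1.74, 1.60 to 1.88). Nes, which encodes the intermediate filament nestin, stood at 140, 306, 289 and 199 CPM (log2 ratio 1.13, 0.98 to 1.29), and Sox9, a glial and stem cell factor, at 37, 86.5, 89.8 and 67.4 CPM (log2 ratio 1.23, 0.93 to 1.53). Fabp7 had a log2 ratio of 0.00 (-0.02 to 0.02). Of 14 Wnt pathway genes 6 were higher and 0 lower, with a median of 0.55. They were the receptors Fzd1, Lrp6 and Lgr5, the destruction complex members Apc and Gsk3b, and the transcription factor Tcf7l2. Apc stood at 7.04, 33.3, 30.4 and 35.9 CPM (log2 ratio 2.24, 1.63 to 2.90) and Tcf7l2 at 36.7, 99, 106 and 95.9 CPM (log2 ratio 1.43, 1.14 to 1.73). Lgr5 lay at the edge of 2-fold and left the higher group under DESeq2 size factors and with a 99% interval. Of 41 DNA replication genes 9 were lower (22%, against 10.9% of all genes) and 2 higher, and of 46 mitosis genes 9 were lower (19.6%) and 4 higher. Uhrf1, which guides maintenance DNA methylation, was 7.98-fold lower (log2 ratio -3.00, -3.72 to -2.35), while the proliferation marker Mki67 stood at 58.6, 192, 235 and 169 CPM (log2 ratio 1.71, 1.49 to 1.94). Zinc finger genes named Zfp had 12 higher and 1 lower of 134, a higher share of 8.96% that is near the 8.15% of all genes.

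**Figure D2:**
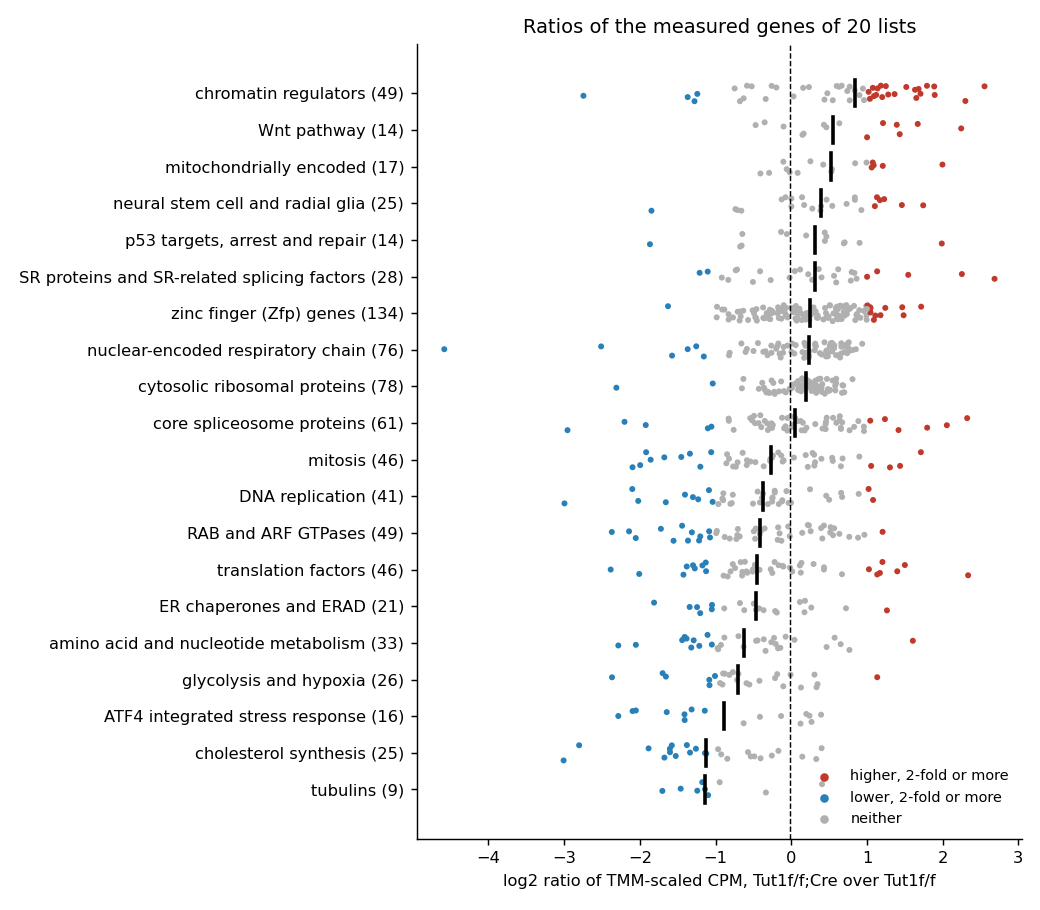
Log2 ratio of Tut1f/f;Cre over Tut1f/f for the genes of 20 lists, 1 point per gene with a black bar at the list's median, and a dashed line at -0.02, the median of all 7312 genes. Tubulins and cholesterol synthesis have medians of -1.14 and -1.12 and chromatin regulators one of 0.84. Cytosolic ribosomal proteins have a median of 0.20 and range from -2.31 to 0.81.

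The genes of proteins that process or bind U6 had calls at about the rate of all genes. Of 19 such genes 1 was higher and 2 lower (5.26% and 10.5%, against 8.15% and 10.9% of all genes), with a median of 0.18. Lsm2, a member of the ring that holds the U6 tail, stood at 131, 31.7, 35 and 36.6 CPM (log2 ratio -2.04, -2.37 to -1.73). The other 6 ring members compared, Lsm3 to Lsm8, had log2 ratios between -0.32 for Lsm4 and 0.63 for Lsm7, so Lsm2 lay below its partners. Trp53f/f;Cre over Tut1f/f gave -1.90 for Lsm2 and between -0.18 (Lsm4) and 0.71 (Lsm5) for the other ring members. Tut1f/f;Trp53f/f;Cre over Tut1f/f gave -1.84 for Lsm2 and between 0.09 (Lsm4) and 0.75 (Lsm7). These comparisons share the control. Usb1, the exonuclease that trims the tail, stood at 19.6, 6.60, 5.45 and 6.78 CPM (log2 ratio -1.57, -2.36 to -0.85). Ssb, which encodes the La protein, stood at 292, 333, 292 and 408 CPM (log2 ratio 0.19, 0.07 to 0.31). Sart3, which anneals U4 with U6, had a log2 ratio of 0.86, short of 2-fold, and Mettl16, the U6 methyltransferase, one of -0.15. The higher gene was Mfap1a, which encodes a spliceosomal protein (log2 ratio 1.46, 1.16 to 1.77).

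Core spliceosome proteins had 6 higher and 5 lower of 61 (9.84% and 8.20%, near the 8.15% and 10.9% of all genes) and a median of 0.05. Snrnp200, the helicase that unwinds U4 from U6, stood at 73.7, 256, 148 and 250 CPM (log2 ratio 1.79, 1.60 to 1.99). Prpf8, the scaffold of the catalytic core, stood at 18.4, 43.3, 20.9 and 50.5 CPM (log2 ratio 1.24, 0.81 to 1.67). Eftud2, the GTPase that sits beside them, stood at 53.8, 6.93, 6.03 and 13.6 CPM (log2 ratio -2.96, -3.68 to -2.31). For Prpf8, Trp53f/f;Cre lay near the control and both libraries labelled as Tut1-deleted lay above them. Snrpb, which encodes the Sm proteins B and B′, stood at 414, 109, 91.8 and 137 CPM (log2 ratio -1.92, -2.10 to -1.75). Of 28 SR proteins and SR-related factors 5 were higher and 2 lower. Besides Son they were Srrm1 (1.54), Srsf9 (2.25), Acin1 (1.13) and Scaf4 above, and Srsf5 (-1.21) and Tra2b (-1.10) below. Scaf4 left the call under DESeq2 size factors and Tra2b without the TMM factor. Over unmodified Ensembl transcripts alone Acin1 had a log2 ratio of 0.15 and Srsf5 one of -0.96. Of 27 hnRNP proteins 2 were lower and 0 higher, and Hnrnpk stood at 532, 162, 122 and 225 CPM (log2 ratio -1.71, -1.86 to -1.57). Of 17 factors of nonsense-mediated decay only the release factor Gspt1 was called, at 34.2, 78.9, 71.2 and 60.7 CPM (log2 ratio 1.21, 0.90 to 1.52).

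Targets of p53 varied between Tut1f/f;Cre and the libraries labelled as lacking Trp53. Of 14 targets in cell cycle arrest and repair 1 was higher and 1 lower in Tut1f/f;Cre (7.14% each, against 8.15% and 10.9% of all genes), with a median of 0.32, and of 6 targets in cell death 0 were called, with a median of -0.24. The minimum left out targets that were low in Tut1f/f;Cre. Phlda3, a negative regulator of AKT, had 129, 14, 9 and 8 reads and Sesn1, a sestrin, 59, 5, 16 and 21. In cell death, Pidd1, which assembles a caspase-activating complex, had 33, 2, 3 and 3 reads and Trp53inp2, a regulator of autophagy, 38, 0, 1 and 1. Each of the 2 lists had 4 genes that met the minimum in 1 library alone, 2 of them lower and 0 higher. With 20 reads in either library the medians were 0.07 and -0.52. Phlda3, Sesn1, Pidd1 and Trp53inp2 were chosen after their values were seen. Cdkn1a, the cell cycle inhibitor p21, stood at 187, 214, 49.1 and 74.9 CPM (log2 ratio 0.20, 0.04 to 0.35). Bbc3, which encodes the death protein PUMA, stood at 30.9, 40.9, 9.76 and 10.5 CPM (log2 ratio 0.40, 0.03 to 0.78). Both were thus about as high in Tut1f/f;Cre as in the control and low in the 2 libraries labelled as lacking Trp53. Polk, a translesion DNA polymerase, was the higher target at 12.6, 49.9, 18.7 and 23.7 CPM (log2 ratio 1.99, 1.52 to 2.48), and its retained intron isoform ENSMUST00000222100 held 22, 67.5, 72.3 and 60% of its reads. Ccng1, cyclin G1, was the lower one at 74.7, 20.5, 8.04 and 15.6 CPM (log2 ratio -1.87, -2.29 to -1.47). Over Trp53f/f;Cre, Tut1f/f;Cre was higher for Cdkn1a (log2 ratio 2.13, 1.88 to 2.38), Bbc3 (log2 ratio 2.07, 1.51 to 2.66), Polk (log2 ratio 1.42, 0.99 to 1.86) and Sesn2 (log2 ratio 1.26, 0.85 to 1.68). The medians of the arrest and death targets over Trp53f/f;Cre were 1.06 and 1.48.

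Set directly against Trp53f/f;Cre, the comparison shrank. Over the same 7312 genes 133 were higher and 36 lower in Tut1f/f;Cre, 2.31% together, and the SD of the log2 ratio was 0.39. The corresponding share for Trp53f/f;Cre over Tut1f/f was 22.2%. The 596 higher genes had a median log2 ratio of 1.30 over Tut1f/f and of 0.10 over Trp53f/f;Cre, and the 797 lower genes of -1.35 and 0.03. These genes were picked on the first ratio, so the second is a description. Besides p53 targets, the genes higher than in Trp53f/f;Cre included Dcxr (log2 ratio 2.02), Apoe (1.96) and mt-Ts1 (1.64). With smaller ratios they also included Prpf8 (log2 ratio 1.05, 0.62 to 1.48) and Prpf3 (log2 ratio 1.06, 0.56 to 1.57), both proteins of the U4/U6.U5 tri-snRNP. The 61 core spliceosome genes had a median of 0.07 over Trp53f/f;Cre. Prpf3 stood at 27.9, 31.7, 15.2 and 48.5 CPM, so the low library was Trp53f/f;Cre. Rpl3-ps1 was far lower than in Trp53f/f;Cre (log2 ratio -3.03, -3.17 to -2.89). Also lower were the sterol enzymes Lss (log2 ratio -1.25, -1.83 to -0.70) and Tm7sf2 (log2 ratio -1.24, -1.76 to -0.75) and the class I histocompatibility gene H2-K1 (log2 ratio -1.27, -1.86 to -0.71). Lss stood at 27.7, 12.5, 29.8 and 31.2 CPM, and here Tut1f/f;Cre was the only low library. Dcxr, Apoe, mt-Ts1, Prpf3, Rpl3-ps1, Lss, Tm7sf2 and H2-K1 over Trp53f/f;Cre were chosen after their values were seen.

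Gene structure went with the direction of the ratio. Protein coding genes were cut into 6 equal classes by gene length. In the shortest class, 348 to 6978 bases, 2.76% were higher and 12.7% lower, with a median of -0.14. In the longest class, 76927 to 2270720 bases, 23.4% were higher and 4.57% lower, with a median of 0.43. The higher share stayed between 2.76 and 3.02% in the 3 shortest classes and reached 5.70 and 11% in the next ones. Genes whose largest annotated transcript has more than 20 exons were higher in 24.4% and lower in 5.14% of 933, with a median of 0.48. Those with 6 to 10 exons had a median of -0.21. Long genes with more than 20 exons stood out most, as 36.2% of 437 were higher. By length of the longest transcript the top class was higher in 27.4%. By GC content of the leading transcript medians ran from 0.12 in the class of lowest GC to -0.26 in that of highest GC.

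Much of this lay outside the coding transcripts. When only reads of annotated protein coding transcripts were counted, the median of the longest class was 0.20, with 12.7% higher. Over the remaining isoforms of the same class it was 0.79, with 40.4% of 488 genes higher. The median of the longest class was 0.44 for Trp53f/f;Cre over Tut1f/f and 0.04 for Tut1f/f;Cre over Trp53f/f;Cre. With a minimum of 50 reads per library 19.9% of the longest class were higher and 1.45% of the shortest.

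**Figure D3:**
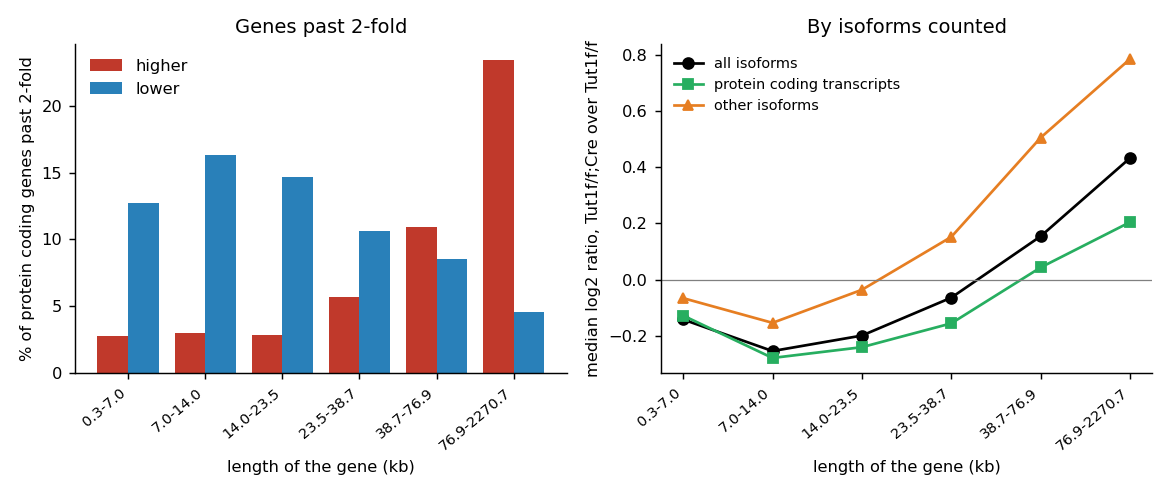
Share of protein coding genes higher and lower in Tut1f/f;Cre than in Tut1f/f, and median log2 ratio, in 6 equal classes of gene length in bases. The higher share goes from 2.76% in the shortest class to 23.4% in the longest, and the median from -0.14 to 0.43.

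Isoform usage, the percentage of a gene's reads that one isoform held, was compared for 18376 isoforms of 5879 genes, each with 10 or more reads in the 2 libraries together. An isoform is called higher or lower where its usage differed by at least 10 percentage points and the 95% interval of the difference left out 0. There were 1172 higher isoforms (6.38%) and 1368 lower ones (7.44%), in 1559 genes. Against Trp53f/f;Cre 627 of the same isoforms were called (3.41%). Annotated isoforms keep their Ensembl name and class, some appear as numbered variants of a transcript, and others are named after a read.

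Retained intron isoforms had by far the largest share of higher calls. Of 1362 tested 269 were higher (19.8%) and 37 lower (2.72%). Protein coding isoforms went the other way, with 358 higher and 777 lower of 6485, and variants of a transcript too, with 96 higher and 233 lower of 2480. Isoforms of class processed transcript, which hold no open reading frame in the annotation, had 48 higher and 19 lower of 426. Those annotated as targets of nonsense-mediated decay had 10 and 6 of 260. Isoforms named after a read had 376 higher and 283 lower of 7163. In all reads of protein coding genes, the share held by retained intron isoforms was 1.16, 1.84, 1.72 and 1.67%, and that of protein coding transcripts 76.5, 75, 75.5 and 75.2%. Against Trp53f/f;Cre, 30 retained intron isoforms were higher and 16 lower.

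**Figure D4:**
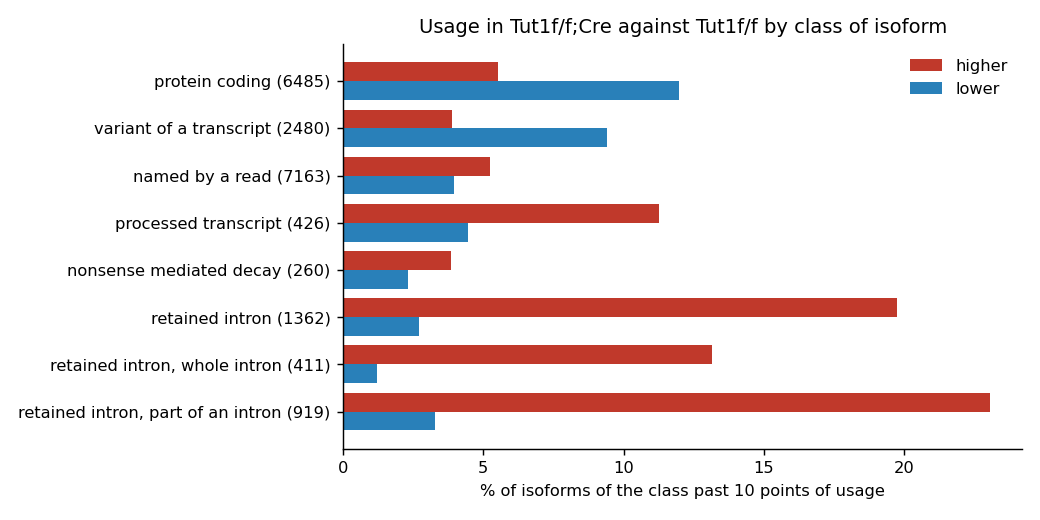
Percentage of the isoforms of each class whose usage was at least 10 points higher (red) or lower (blue) in Tut1f/f;Cre than in Tut1f/f, with the number tested in parentheses. Retained intron isoforms are higher in 19.8% and lower in 2.72%, and protein coding isoforms are lower more often than higher.

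The 269 higher retained intron isoforms had a median usage of 6.45, 28, 24 and 21.2%. By structure, 411 tested isoforms keep a whole intron between 2 exons of a coding transcript, with 54 higher and 5 lower. Another 919 hold part of such an intron and no whole one, with 212 higher and 30 lower. Summed over its retained intron isoforms, 300 of 1197 genes (25.1%) were higher and 28 lower. In those 300 the median share was 7.53, 32.1, 27 and 23.7%. Their retained reads had a median log2 ratio of 1.88 and their remaining reads one of -0.66, so that the gene count as a whole had a median of -0.17. By gene count 28 of the 300 were higher and 44 lower, where all genes had 8.15% higher and 10.9% lower. Genes with at least 50% of reads in retained intron isoforms numbered 64 in the control and between 104 and 113 in the Cre libraries.

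The genes with the largest shifts serve varied roles. The retained intron isoform with the largest difference holds only part of an intron in Naa40, Dmtf1, Prpf31, Polk and Zcchc8, and a whole one in Copa and Rbm4. Naa40, which acetylates the N terminus of histones, had a retained share of 27.5, 90.1, 94.4 and 77.1% (62.7 points, 46.4 to 74.2). Copa, a subunit of the COPI vesicle coat, had 10.3, 51, 48 and 47.1% (40.8 points, 29.9 to 51). Dmtf1, a Myb-like transcription factor, had 6.76, 57.1, 35.6 and 35.2% (50.4 points, 35.7 to 62.5). In all 3 the control was the low library and the Cre libraries lay well above it. Prpf31, the protein that bridges U4 and U6 in the tri-snRNP, had 29.6, 66.7, 53.9 and 62.5% (37.1 points, 23.5 to 48.8). Rbm4, a splicing regulator, had 16.2, 52, 48.6 and 50% (35.8 points, 21.8 to 48.3). The repair polymerase Polk, whose gene count was also higher, had 22, 67.5, 72.3 and 60% (45.5 points, 30.2 to 57.1). Zcchc8, a subunit of the nuclear exosome targeting complex, went the other way at 53.8, 17.5, 15.8 and 20.4% (-36.4 points, -47.1 to -24). Among genes with a lower count, Pfkl had 0.686, 22.1, 23.3 and 16.2% (21.4 points, 13.9 to 31.3) and the condensin subunit Ncapd2 14.3, 68.9, 71.2 and 61.8% (54.6 points, 39 to 67). Ncapd2 was chosen after its values were seen.

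By list, counts are read against 25.1% higher among all 1197 genes tested. Of the 4 splicing kinases tested 3 were higher, namely Clk1, Clk4 and Prpf4b, which phosphorylate SR proteins or the tri-snRNP. Clk1 had 18, 62.1, 60.1 and 47.9% (44.2 points, 34.4 to 52.7) and Clk4 11, 32.4, 28.6 and 24% (21.4 points, 12.3 to 30.4). Of 17 SR proteins and SR-related factors Srsf11 was higher at 18.3, 46.7, 41.5 and 56.9% and Luc7l and Srsf2 lower, Srsf2 at 83.1, 67.1, 77.9 and 59.7%. RAB and ARF GTPases had 4 higher of 7, zinc finger genes 7 of 18, and mitosis genes 3 of 14. Of 43 cytosolic ribosomal protein genes 0 were higher and 0 lower. Chromatin regulators, the list with the highest median by gene count, had 0 of 13, and cholesterol synthesis had 0 of 6. The p53 target Eda2r, a death receptor, had 39.6, 78, 42.9 and 70.6% (38.5 points, 20.6 to 52), but rests on 7 reads in all in Trp53f/f;Cre.

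**Figure D5:**
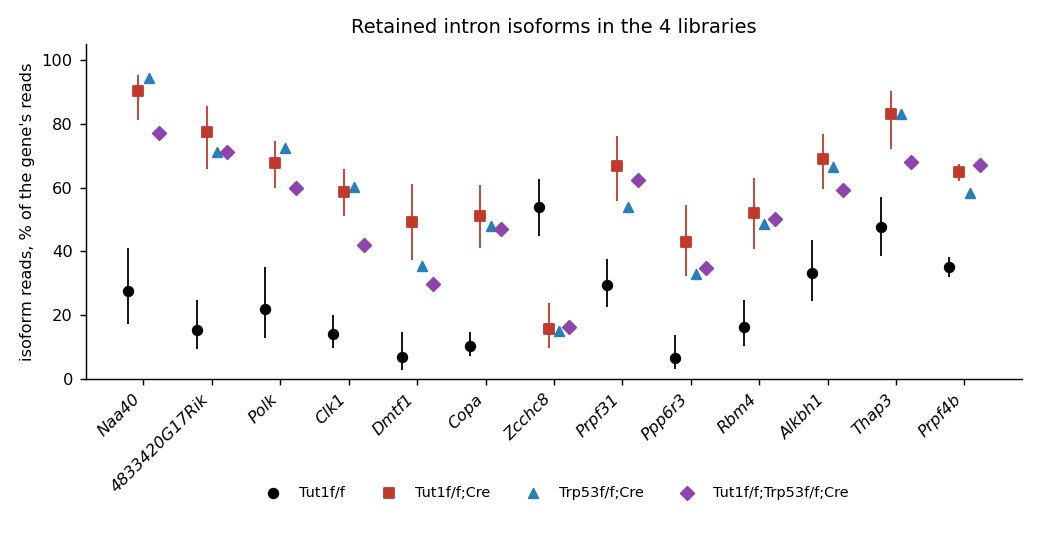
Percentage of a gene's reads held by a single retained intron isoform in the 4 libraries, for the isoforms with the largest differences and that of Prpf4b, with 95% Wilson intervals on the control and on Tut1f/f;Cre. The control is the lowest library in each gene except Zcchc8, where it is the highest at 53.8%.

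The 5′ splice sites of whole retained introns are printed because U6 pairs with this position. Each run holds 10 exon bases, the first 6 intron bases in capitals and 14 further intron bases, 5′ to 3′, from GRCm38.
Clk1 intron 3 of 12, chr1:58421063-58421092, minus strand: ttcacacgggGTATGAgtgccttttaaacg
Copa intron 5 of 32, chr1:172091231-172091260, plus strand: cctgtgtctgGTAAACcaagaggcagtagc
Rbm4 intron 2 of 3, chr19:4792378-4792407, minus strand: gagtttcaagGTGAATcactcttttggagt
Dhx30 intron 2 of 4, chr9:110115471-110115500, minus strand: cttttataagGTAAGGtgacttagccctgc
Eya1 intron 2 of 17, chr1:14304405-14304434, minus strand: caagttgcagGTAAGActttcgttgatatt
Ahsa1 intron 3 of 8, chr12:87269948-87269977, plus strand: tgaagtggagGTTTGTgtttgccgagtcct
They were picked for the largest usage differences among higher isoforms that keep a whole intron. Each isoform needed 20 reads in Tut1f/f;Cre and its gene 50 in each library, and not all chromosomes were searched. Dhx30, a mitochondrial RNA helicase, had a retained share of 7.04, 42.4, 40.5 and 27.7%, and Eya1, a transcriptional cofactor and phosphatase, of 6.25, 37.3, 26.8 and 28.8%. The letters GTAAGT and GTGAGT, read on the gene's strand at the start of the intron, were searched in 531 whole introns. GTAAGT opened 11.9% of all of them and 15.3% of the 72 in higher isoforms. GTGAGT opened 12.8% and 9.72%. None of the 6 introns printed begins with either. The introns of higher isoforms had a median length of 367.5 bases, against 306 in those called neither way.

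Leading isoforms changed places in some genes. The most used isoform differed between the libraries in 547 of 5879 genes, and in 281 (4.78%) the intervals of both the old leader, lower in Tut1f/f;Cre, and the new one, higher there, left out 0. In 55 of these the new leader was a retained intron isoform, and in 4 the old one was. In 101 a protein coding leader gave way to another class, against 25 the other way. Ahsa1, an activator of the chaperone HSP90, had its coding leader ENSMUST00000021425 at 58.9, 29.8, 34.2 and 41.9% and the retained intron isoform ENSMUST00000223239 at 32.7, 62.4, 59.2 and 48.3%. The Cre libraries lay on the far side of the control for both. Ahsa1 was chosen after its values were seen. Tomm20, the receptor of the outer mitochondrial membrane, had its transcript ENSMUST00000179857 at 36.6, 88.4, 90.2 and 80.7% (51.8 points, 45.2 to 56.9) and the variant 1 of it at 60.1, 6.10, 7.01 and 12.1%. Its gene count was lower, at 236, 54.1, 61.4 and 47.4 CPM, and summed over the transcript and its variants the usage of Tomm20 differed by -2.19 points.

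Further large differences are given by gene. Glyr1, a nucleosome-binding cofactor, had ENSMUST00000023189 at 33.3, 84.2, 87.9 and 68.8% (50.9 points, 43.9 to 56.9). Yeats4, a reader of acetylated histones, had its nonsense-mediated decay isoform ENSMUST00000218887 at 42.9, 81.6, 80.3 and 81.2% (38.6 points, 31.1 to 45.3). Srsf10, an SR-related splicing factor, had the processed transcript ENSMUST00000129718 at 20.6, 57.2, 60.6 and 51.1% (36.6 points, 30.5 to 42.3), while its gene count hardly differed (log2 ratio -0.02). Hsp90ab1, a cytosolic chaperone, had its coding transcript ENSMUST00000024739 at 52.9, 18.4, 15.7 and 24.7% (-34.5 points, -36.3 to -32.6), a difference of -0.424 points when only unmodified Ensembl transcripts of Hsp90ab1 were counted. Kdm4a, a histone demethylase, had its coding isoform ENSMUST00000106406 at 96.4, 52.5, 55.1 and 38.1% (-44 points, -52.4 to -35.1). In all 5 the 3 Cre libraries lay on the same side of the control, but Tut1f/f;Trp53f/f;Cre stood more than 10 points from the other Cre libraries in Glyr1 and Kdm4a.

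The genes whose splicing the study assayed by PCR in these cells are given next. The study called its splicing events from Nanopore reads of these same groups. Events it ascribed to Tut1 loss were those shared by both Tut1-deleted groups and absent in Tut1f/f and Trp53f/f;Cre. Pnisr was its example. These genes are therefore not independent evidence of a direction or of that grouping of the libraries. Pnisr, an SR-related protein, had the processed transcript ENSMUST00000152666 at 16.1, 34.3, 16.8 and 31.9%, higher than Tut1f/f (18.2 points, 8.12 to 27.9) and than Trp53f/f;Cre (17.5 points, 7.59 to 27.1). Ube2v2, a partner of ubiquitin-conjugating enzymes, had its transcript ENSMUST00000115777 at 58.5, 44.6, 65.3 and 46.5%, lower than Tut1f/f (-14 points, -21.5 to -6.19) and than Trp53f/f;Cre (-20.7 points, -28.6 to -12.5). Its ENSMUST00000115776 stood at 19.4, 30.7, 15.3 and 30.2% (11.3 points, 4.55 to 18.1). For these isoforms of Pnisr and Ube2v2 the 2 libraries labelled as Tut1-deleted thus lay on one side and the 2 labelled as keeping Tut1 on the other. The other Pnisr isoform that was called, named after a read, stood at 27.3, 12.9, 17.4 and 19.4%, and there the control alone was high. Prpf4b, a kinase of the tri-snRNP, had the retained intron isoform ENSMUST00000221639, which holds only part of an intron, at 35.1, 64.8, 58.4 and 67.2% (29.7 points, 25.6 to 33.7). Its processed transcript ENSMUST00000223228 stood at 38.3, 12.7, 23.6 and 12.6% (-25.6 points, -29.2 to -21.9). For Prpf4b Trp53f/f;Cre lay between the control and the libraries labelled as Tut1-deleted, near the latter for the retained isoform. Rit1, a RAS-related GTPase, had its coding transcript ENSMUST00000029692 at 71.3, 85.2, 70.3 and 75%, a difference whose interval held 0 (13.9 points, -0.299 to 25.7). The gene counts of all 4 stayed within 2-fold, with log2 ratios from -0.51 for Rit1 to 0.73 for Prpf4b.

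A few other genes had isoforms with the pattern of those of Pnisr and Ube2v2 and were chosen after their values were seen. Ociad1, an endosomal and mitochondrial protein, had ENSMUST00000071081 at 14.5, 30.2, 12.6 and 29.6% and ENSMUST00000031038 at 59.1, 43.7, 63.6 and 45.1%. Over Trp53f/f;Cre these differed by 17.6 points, 11.9 to 23.2, and by -20 points, -26.7 to -13. Scnm1, a protein of the minor spliceosome, had ENSMUST00000172572 at 57.1, 38.1, 55.2 and 40.8% (-19 points, -28.4 to -9.16). Ttc9c had ENSMUST00000096751 at 85.9, 65.8, 82.9 and 67.9% (-20.1 points, -29 to -11.1), and Hspa5 had ENSMUST00000100171 at 22.2, 33.9, 17.7 and 36.9% (11.7 points, 5.38 to 18.4). In each of them both libraries labelled as Tut1-deleted were within 5 points of each other, and the remaining pair likewise. Other isoforms grouped differently, with Tut1f/f;Cre nearer the control and both libraries labelled as lacking Trp53 apart. Mrpl55 ENSMUST00000108785 stood at 38.7, 33.7, 8.21 and 7.75%, Cyb5r3 ENSMUST00000018186 at 72.5, 63.2, 35.1 and 43%, and Atf4 ENSMUST00000109605 at 88.5, 88.6, 71.4 and 75.9%. These too were chosen after their values were seen. How many of the 18376 isoforms had either grouping was not counted.

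Genes outside the comparison numbered 6903 with a read in either library. Of these 5263 were under the minimum in both, 1154 met it in Tut1f/f only and 486 in Tut1f/f;Cre only. By the same ratio and interval 631 of the 1154 would be lower and 404 of the 486 higher, so the minimum left out more lower than higher genes. At the edge, 137 members had exactly 20 reads in the lower library, with a median log2 ratio of 0.01, and 127 genes had 19, with a median of -0.003. Sterol synthesis lost further genes this way. Mvd, which makes isopentenyl diphosphate, had 290, 18, 44 and 66 reads, and Insig1, the sterol sensor of the endoplasmic reticulum, 219, 18, 25 and 20. Among ribosome biogenesis factors Bop1 had 157, 5, 8 and 12 reads and Gar1, of the box H/ACA snoRNPs, 162, 15, 16 and 16. In the other direction Ago2, the slicing Argonaute, had 10, 63, 59 and 56 reads, Tead1, a Hippo pathway factor, 11, 64, 57 and 36, and the histone gene Hist1h2ab 4, 83, 147 and 105. In these too the control was the library that stood alone. All 7 were chosen after their values were seen.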

How the data were processed

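Poly(A) RNA of primary mouse neural stem cells was sequenced as long-read cDNA-PCR libraries on a Nanopore instrument, 1 per group. The authors deposited 1 table of counts of reads per isoform for the 4 libraries, with mm10 as the build per the labels. The aligner and counter of this table, and how it treated strand and reads that fit several genes, are not given in the sources used here. For long reads of embryonic pallium the methods name minimap2, Ensembl transcripts and FLAIR. Entries that name no gene (17.2 to 30.2% of reads) were left out. Isoforms were summed by Ensembl gene, with symbols, classes, coordinates and sequences from GENCODE M21 (GRCm38).

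Library sizes were scaled with TMM (edgeR 4.0.16, R 4.3.3), and DESeq2 1.42.0 size factors were an alternative. With 1 library per group no model was fitted and no p-value given. Ratios carry exact (Clopper-Pearson) 95% intervals and usage differences Newcombe intervals, which cover counting error only, as amplified reads lacking molecular identifiers can repeat a molecule. A gene needed 20 reads in each library and a 2-fold ratio, an isoform 10 reads and 10 points. The steps were tested on simulated data. Python 3.11.15 with pandas 2.3.3 and scipy 1.17.1 was used.

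Members and the 50 gene lists were chosen with earlier results of these data known. Named genes were Tut1, Trp53, the sex-linked checks, the assayed Pnisr, Prpf4b, Ube2v2 and Rit1, per list up to 8 members past 2-fold by mean CPM and members needed to describe the list, the 15 largest ratios each way at 50 CPM or more, the 12 largest usage differences each way at 100 reads, and 12 retained intron isoforms at 50 reads. Alternatives changed the scaling, the minimum of reads, the interval, the usage threshold and the isoforms counted. Some items are not reported here.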

Additional observations from a re-analysis of the deposited data

Results flagged for a closer look

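Reads in entries that name no gene made up 30.2% of the Tut1f/f;Cre library, against 17.2% of the Tut1f/f library, and no comparison above uses them. The other Cre libraries held 28.9% in Trp53f/f;Cre and 27.3% in Tut1f/f;Trp53f/f;Cre. No groups held 4 or more samples, so single libraries could not be checked against others of their group.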

How the results depend on the processing

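The 1393 genes called (596 higher, 797 lower) became 688 with 50 reads in each library, 2428 with 20 in either, 2999 with 1 in either, and 837 (232 higher, 605 lower) with unmodified Ensembl transcripts only. Against Trp53f/f;Cre, an alternative added after seeing the data, they became 169. Between 1263 and 1430 were called under the other scalings, a 99% interval and without genes of shared sequence. The 272 higher genes of the longest class became 151 at 50 reads. The 8 lists with a median at least 0.5 from that of all genes stayed 8 or became 9.

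The 2540 isoforms called became 1193 at 20 points, 1681 at 50 reads, 1254 with unmodified transcripts only and 627 against Trp53f/f;Cre. The 306 retained intron isoforms (269 higher, 37 lower) became 144 (134 and 10) at 20 points, 199 (171 and 28) at 50 reads and 46 (30 and 16) against Trp53f/f;Cre. The 281 genes with another leading isoform became 160 at 50 reads and 138 with unmodified transcripts only. The retained intron shares of 1.16% in the control and 1.84% in Tut1f/f;Cre became 2.44 and 3.995% as means over genes, 1.10 and 1.67% at 50 reads, and 1.38 and 2.10% with unmodified transcripts only. The minimum of reads and the choice of transcripts leave fewer or more features by construction, and the cause of the other differences was not tested.

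Of 1689 values for 227 single genes under alternatives, 1646 stayed on their side of the call, 43 left it, in 33 genes, and 0 changed direction. Of 389 usage values for 70 single isoforms, 369 stayed, 13 left the call and 6 entered it. In 1, Tomm20 ENSMUST00000179857, the difference of 51.8 points became -2.19 with variants summed into their transcript. Of 217 list medians 1 moved, that of nuclear and imprinted long noncoding RNAs, to 1.29 with 20 reads in either library. No paired analysis was possible because each group is 1 library, and for the same reason no library could be left out. Depth limits genes of 20 to 49 reads in the lower library, whose intervals had a median of 0.67 on either side on the log2 scale.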

Other observations

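Lists not described above are read against 8.15% higher and 10.9% lower among all 7312 genes. Mitochondrial ribosomal proteins had 1 higher and 9 lower of 75, and solute carriers 5 higher and 11 lower of 84. The lowest ratio of the former was that of Mrpl3, at 35.5, 6.60, 5.74 and 6.44 CPM (log2 ratio -2.42, -3.18 to -1.74). Mrpl3 was chosen after its values were seen. Of 43 proteasome subunits 0 were higher and 3 lower, and of 34 membrane and translocon genes 1 was higher and 3 lower. Heat shock proteins had 1 higher and 3 lower of 23, led down by the chaperonin subunit Cct2 at 328, 136, 123 and 203 CPM (log2 ratio -1.27, -1.44 to -1.11). Of 16 immediate early genes 1 was higher and 4 lower, among them Dusp6, a phosphatase of ERK, at 103, 40.6, 28.7 and 56.6 CPM (log2 ratio -1.34, -1.65 to -1.05). DNA damage response genes had 1 higher and 3 lower of 25, histone variants 0 and 2 of 13, with H2afj at 183, 44.2, 18.9 and 15.3 CPM (log2 ratio -2.05, -2.33 to -1.78), oxidative stress, iron and metal genes 1 and 1 of 22, interferon and RNA sensing genes 3 and 1 of 11, Ube2 and Usp genes 2 and 2 of 56, splicing kinases 0 and 1 of 9, snoRNA host genes 1 and 0 of 20, and nuclear and imprinted long noncoding RNAs 2 and 0 of 5. Of 9 genes the study assayed in embryonic pallium 7 met the minimum, with 0 higher and 1 lower, Dhodh (log2 ratio -1.32, -1.94 to -0.74), and Pidd1, with 33 and 2 reads in the compared libraries, was lower outside it.

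Lineage lists went both ways. Of 17 astrocyte genes 5 were higher and 1 lower, with the transcription factor Nfib at 21.6, 60.8, 62.3 and 64.4 CPM (log2 ratio 1.49, 1.11 to 1.88). Of 12 oligodendrocyte genes 1 was higher and 2 lower, Cnp the lowest at 80.2, 10.2, 6.31 and 9.49 CPM (log2 ratio -2.97, -3.55 to -2.44). Notch pathway genes had 2 higher and 2 lower of 19, with the lower Ncstn at 52, 21.1, 12.1 and 29.5 CPM (log2 ratio -1.30, -1.73 to -0.89). Of 13 neuronal genes 1 was higher and 0 lower, of 4 mesenchymal genes 0 and 1, and of 4 ependymal and ciliary genes 0 and 0. The collagen chaperone Serpinh1 was the mesenchymal gene, at 228, 53.2, 65.4 and 79.3 CPM (log2 ratio -2.10, -2.35 to -1.86). The microglial and blood list had 1 compared gene, which was lower, the endothelial list 1, which was neither, and the sex-linked list 0. In all 8 genes given here with CPM the control lay on one side of all 3 Cre libraries.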
